A study of Homo sapiens with 4 samples.

Results

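The short arm of human chromosome 6, from its tip up to the start of the large histone gene cluster, is described here through every row of the deposited count table that lies on chromosome 6 and whose largest end falls at or before a fixed limit just short of those genes. The last of them ends at base 25885751. This took in 662 of the 78724 rows of the table, placed by the coordinates the table gives. The stretch was chosen with earlier results of these data known. The rows hold genes of many kinds and share only their place. Among them are the FOXC1 and FOXF2 forkhead genes, the SERPINB protease inhibitors, DSP, BMP6, JARID2, SOX4 and E2F3. Of the 662 rows, 533 held no read in any library, 73 held 1 to 19 reads and 56 held at least 20 over the 4 libraries and were tested. A RefSeq symbol was given to 268 of the rows by place, and to 48 of the 56 tested.

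The reads are ribosome footprints from A375, an established human melanoma line. Cells were kept for 48 h either in control medium, with 2 libraries (control 1 and 2), or in medium without L-arginine, with 2 libraries (arginine-free 1 and 2). The labels give the arginine-free medium as an RPMI base lacking amino acids, to which glucose, pyruvate and every amino acid but arginine were returned, while the cells were grown in DMEM with serum beforehand. The base of the control medium and the serum in both are not given, and the labels name no genetic change in either group. It is also not stated whether the libraries of a group came from separate cultures, so the p-values cover only how these libraries differ, which could be technical variation.

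Ribosome profiling sequences the short stretches of mRNA that translating ribosomes shield from nuclease. The number of footprints on an mRNA depends on how much of that mRNA there is and on how many ribosomes sit on each copy, and footprints alone do not separate these. Fewer ribosomes on an mRNA and fewer copies of it therefore cannot be told apart here, nor can either be told apart from fewer cells that carry it. When arginine is short, its transfer RNAs lose their charge, the kinase GCN2 senses this, and the factor ATF4 is made. ATF4 acts on target genes through amino acid response elements.

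Few reads were counted on the rows of the table, with 105004 and 217989 in control 1 and 2, and 234766 and 192006 in arginine-free 1 and 2. A count of 3, the limit that a count of 0 allows, stood for 27.4 CPM (counts scaled by library size) in control 1 and 14.9 in control 2, and for 12.6 and 18.4 CPM in arginine-free 1 and 2. A single row took between 8.68% and 20.2% of a library. The table's coordinates are those of GRCh38, and the submitters' processing notes name GRCh37 for the reads, so a row can miss reads of its gene or hold reads of a neighbour. On this arm the builds are known to be shifted by less than the length of a long exon. A gene name below stands for the row at that gene's place on GRCh38. Of 9 melanocytic marker genes, 4 were listed at 0, among them PMEL and MITF, and the whole list held 22, 38, 2 and 2 reads in control 1, control 2, arginine-free 1 and arginine-free 2. Most of these were on TYRP1, with 16, 25, 1 and 0 reads. All 6 fibroblast markers were listed at 0. They lie on nuclear chromosomes other than 6, where 28.0% of protein-coding rows held a read, so a 0 there says little about the cells. DCT of the melanocytic list and EPCAM of the epithelial list had no row. Of 7 epithelial markers 4 were at 0, and the list held 2, 9, 169 and 84 reads, nearly all of them on DSP, which is itself one of the rows described.

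The following promoters are printed because their rows show the largest changes with separated groups. They belong to the 3 protein-coding rows with the largest rise and the 2 with the largest fall among those whose groups did not overlap and whose RefSeq start lay close to the row's end, and were picked after the values were seen. Each is the 250 bases before the RefSeq start on GRCh38.p14, written 5′ to 3′ on the gene's strand. The RefSeq start of DSP lies 345 bases inside its row, so the DSP window falls within the place of the row. The other windows lie outside their rows. Capitals mark matches, on either strand, to the searched motifs TGATGNAA (the core of the amino acid response element), TATAAA (the box bound by the TATA-binding protein), CCAAT (the box bound by factor NF-Y), CACGTG (an E-box), TGACTCA (the element bound by AP-1) and GGGCGG (a GC box, whose copies may overlap one another). The windows are chr6:7541421-7541670 on the plus strand for DSP, and on the minus strand chr6:5260951-5261200 for LYRM4, chr6:24720837-24721086 for C6orf62, chr6:2841864-2842113 for SERPINB1 and chr6:693140-693389 for EXOC2.
DSP: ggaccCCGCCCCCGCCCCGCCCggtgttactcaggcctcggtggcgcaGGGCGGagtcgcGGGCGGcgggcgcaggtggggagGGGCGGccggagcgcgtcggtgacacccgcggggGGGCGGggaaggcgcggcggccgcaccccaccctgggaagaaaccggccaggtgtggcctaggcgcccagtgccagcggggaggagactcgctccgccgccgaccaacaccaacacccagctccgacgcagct
LYRM4: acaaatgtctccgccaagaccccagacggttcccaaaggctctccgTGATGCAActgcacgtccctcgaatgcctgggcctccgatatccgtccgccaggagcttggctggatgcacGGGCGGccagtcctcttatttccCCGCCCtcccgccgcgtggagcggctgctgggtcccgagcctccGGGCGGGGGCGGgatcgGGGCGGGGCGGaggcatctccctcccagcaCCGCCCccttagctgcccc
C6orf62: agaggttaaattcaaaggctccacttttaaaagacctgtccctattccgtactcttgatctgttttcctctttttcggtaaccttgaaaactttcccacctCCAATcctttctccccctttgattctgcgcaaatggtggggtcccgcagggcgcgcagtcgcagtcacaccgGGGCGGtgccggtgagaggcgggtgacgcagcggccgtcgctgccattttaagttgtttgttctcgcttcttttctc
SERPINB1: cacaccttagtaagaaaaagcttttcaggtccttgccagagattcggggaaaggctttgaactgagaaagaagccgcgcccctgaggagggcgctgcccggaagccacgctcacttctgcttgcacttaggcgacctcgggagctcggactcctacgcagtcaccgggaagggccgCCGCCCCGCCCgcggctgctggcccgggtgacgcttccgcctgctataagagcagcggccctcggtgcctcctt
EXOC2: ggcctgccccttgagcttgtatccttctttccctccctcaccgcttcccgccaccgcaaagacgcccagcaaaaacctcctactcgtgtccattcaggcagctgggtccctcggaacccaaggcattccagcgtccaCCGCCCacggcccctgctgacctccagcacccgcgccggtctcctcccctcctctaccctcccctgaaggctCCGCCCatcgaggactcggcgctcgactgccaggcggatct

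Of these windows, LYRM4 holds the letters of the amino acid response element core, read as TGATGCAA on the printed strand. Over all 35116 RefSeq promoters of this length, 3.14% held that core. Among 45 tested rows of the arm with a listed promoter, 5 held it, and among the 12 of these whose reads passed the test 1 did. GC boxes stand out by their number in the printed DSP and LYRM4 windows. GGGCGG was found in 34 of the 45 promoters and in 9 of the 12, against 42.6% of all promoters. CCAAT was found in 16 of the 45 and 5 of the 12, against 32.0%, and C6orf62 carries it among the printed windows. TATAAA was found in 7 of the 45 and in PRP4K among the 12, against 10.7%. CACGTG (2 of the 45, against 6.34%) and TGACTCA (1 of the 45, against 4.20%) were in none of the 12. The bases G and C made up 66.0% of the median promoter of the tested rows, against 58.0% over all promoters, and reached 78.0% in the DSP window and 52.4% in that of C6orf62. The 45 are promoters of rows with at least 20 reads, while the 35116 were not chosen by reads, and the shares were not tested. A match to such short letters is a description of the window and not evidence that a factor binds there.

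As a block, the arm took a small part of the reads of every library. The rows together held 698 reads in control 1, 1372 in control 2, 1702 in arginine-free 1 and 1245 in arginine-free 2. That is 0.665% of the library (95% Wilson interval 0.617 to 0.716) and 0.629% (0.597 to 0.663) in the control libraries, and 0.725% (0.691 to 0.760) and 0.648% (0.613 to 0.685) in the arginine-free ones. The intervals cover counting error only. On all reads, control 1 lay between the arginine-free libraries. Of reads on nuclear chromosomes alone, the arm took 0.796% and 0.852% in control 1 and 2 and 0.886% and 0.860% in arginine-free 1 and 2, so that both arginine-free libraries lay above both controls. The shares of nuclear reads were not tested. Of all reads, the means were 0.647% ± 0.025 (SD, n = 2) in control and 0.687% ± 0.0541 (SD, n = 2) without arginine. An exact two-sided permutation test did not separate these shares of all reads (p = 0.667, with 0.333 the smallest that 2 against 2 allows). The difference of 0.0396 points was 0.00135 without arginine-free 1 and 0.0779 without arginine-free 2.

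Within the block single rows moved in both directions. Of the 56 tested rows 14 passed edgeR's quasi-likelihood test at a Benjamini-Hochberg adjusted p under 0.05 over all rows of the table, which is 25% of the tested rows against 26.7% of the 3334 rows tested over the whole table. Higher without arginine were 10 rows (17.9%, against 13% of all rows tested), and lower were 4 (7.14%, against 13.7%). The CPM values of both arginine-free libraries lay above both controls in 16 rows (28.6%) and below them in 16, where the whole table gave 31.9% above and 31.4% below. The median log2 fold change of the tested rows was -0.04, with quartiles at -0.78 and 0.64, and that of all rows tested was -0.02, with quartiles at -0.68 and 0.68. These shares were not tested against each other. The count of rises moved with the choice of libraries and tool, being 3 with DESeq2, where the falls numbered 3. DESeq2 gave no adjusted p for 2 of the 10 higher rows, LOC100130357 and ENSG00000232234.5.

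**Figure D1:**
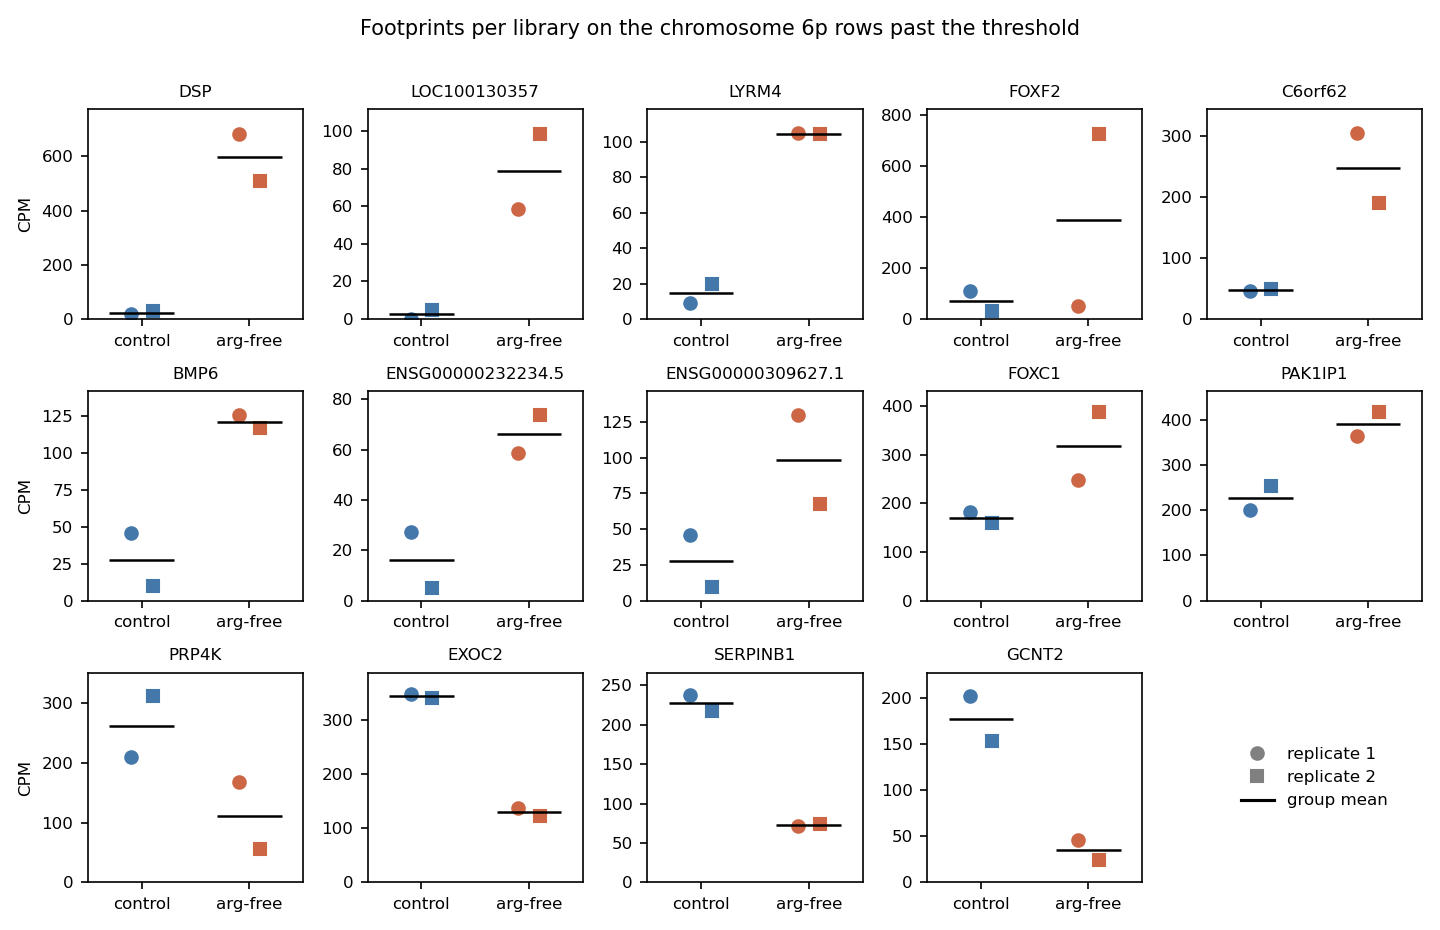
CPM (counts scaled by library size) in each library for the 14 rows past the threshold, 1 panel per row with its own vertical axis from 0, control on the left and arginine-free on the right; circles are replicate 1, squares replicate 2 and lines the mean of 2. The groups are apart in every panel but that of FOXF2, where only arginine-free 2 stands high.

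DSP, which encodes desmoplakin, the protein that ties keratin filaments to desmosomes, rose and had the smallest p on the arm. Its fitted rise was the largest by edgeR with all libraries and no replicate block. That of LOC100130357, described further on, was larger without control 2 (6.72 against 5.01) and without arginine-free 1 (4.63 against 4.27). It was also slightly larger with the replicate block (4.47 against 4.46). The DSP row (7541326 to 7586717, plus strand) held 2 and 6 reads in control 1 and 2 and 163 and 83 in arginine-free 1 and 2. Both arginine-free libraries lay far above both controls, at 596 ± 122 CPM against 24.0 ± 8.08 (SD, n = 2 in each group). The log2 fold change was 4.52 (SE 0.39), or 22.9-fold, with an adjusted p of 1.55e-08 by edgeR. DSP shares exon bases with the antisense row DSP-AS1, which was listed at 0. The keratin KRT14, the epithelial marker with reads besides it, held 0, 3, 6 and 1 reads beside the 254 of DSP. DSP remained past the threshold under all 13 alternative settings, with log2 fold changes from 4.27 to 5.01.

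DSP was the only tested row of its list, cytoskeleton and cell junctions, past the threshold on the higher side. Of 15 such genes 7 were tested, and EXOC2 was lower. Over all rows tested 13% were higher and 13.7% lower, and no list's counts were tested against these shares. The median log2 fold change of the list was -0.56, against -0.02 over all rows tested. RIPOR2, DCDC2, MYLK4 and STMND1 were listed at 0. EXOC2, a subunit of the exocyst complex that docks secretory vesicles at the plasma membrane, fell. Its row (485154 to 693139, minus strand) held 38 and 69 reads in control 1 and 2 and 33 and 20 in arginine-free 1 and 2. At 345 ± 4.07 CPM in control and 131 ± 10.8 without arginine, the groups were well apart. The log2 fold change was -1.39 (SE 0.30), 2.62-fold lower, with an adjusted p of 0.00147 by edgeR. NEDD9, a scaffold protein of focal adhesions, held 44 and 87 reads in control 1 and 2 and 77 and 39 in arginine-free 1 and 2. NEDD9 averaged 417 ± 20.2 CPM in control and 281 ± 58.5 without arginine, and the groups did not overlap. Its log2 fold change of -0.56 (SE 0.26) had an adjusted p of 0.121 by edgeR. It passed in 1 of 13 alternatives, without arginine-free 1 (-0.81, adjusted p = 0.0291), and was -0.36 (0.298) without arginine-free 2 and -0.48 (0.469) without control 2. PHACTR1, which binds actin and protein phosphatase 1, had a log2 fold change of -0.75 (adjusted p = 0.355 by edgeR).

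Among 12 listed transcription factors and DNA-binding regulators, 11 had a row under their symbol and 8 of these were tested. FOXF2 and FOXC1 were higher and none was lower, against 13% higher and 13.7% lower of all rows tested. The median log2 fold change was -0.20, against -0.02 over all rows tested. HIVEP1 is left out of these counts. The tested row ENSG00000095951.18, which lies within its place, had a log2 fold change of 0.28 (adjusted p = 0.704 by edgeR). FOXC1, a forkhead factor of mesenchyme and neural crest derivatives whose gene is a single exon, lies at 1609915 to 1613897 on the plus strand. Its row held 20 and 32 reads in control 1 and 2 and 59 and 63 in arginine-free 1 and 2. The groups were apart, at 171 ± 17.3 CPM in control and 317 ± 99.1 without arginine. The log2 fold change was 0.89 (SE 0.31), or 1.85-fold, at an adjusted p of 0.0407 by edgeR. FOXC1 was past the threshold by little, and in 6 of 13 alternatives: without control 1 it had 0.98 and an adjusted p of 0.128, without control 2 it had 0.80 and 0.269, and without arginine-free 2 it had 0.57 and 0.173.

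FOXF2, a related forkhead factor that lies next to FOXC1 (1389576 to 1395603, plus strand), had its high value in a single library. It held 12 and 6 reads in control 1 and 2, 12 in arginine-free 1 and 118 in arginine-free 2. Control 1 lay above arginine-free 1, so the groups overlapped, and the means were 69.8 ± 56.6 and 388 ± 477 CPM. The log2 fold change of 2.59 (SE 0.77, adjusted p = 0.0149 by edgeR) rests on arginine-free 2: without it the value was -0.23 (adjusted p = 0.823). Without control 2 it was 1.77 (adjusted p = 0.245), and FOXF2 passed in 8 of 13 alternatives.

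The other regulators tested did not pass the threshold. SOX4, a factor of progenitor cells with its coding sequence in a single exon, held 44 and 73 reads in control and 66 and 47 without arginine. The arginine-free libraries both lay below the controls, at 283 ± 8.82 against 382 ± 28.9 CPM, with a log2 fold change of -0.43 (SE 0.26) and an adjusted p of 0.239 by edgeR. JARID2, a partner of the Polycomb repressive complex PRC2, held 25, 57, 66 and 37 reads in the same order and differed by -0.03 (SE 0.29). RREB1, a zinc finger factor downstream of Ras, held 19, 32, 38 and 26 reads and differed by -0.05 (SE 0.33). E2F3, an activator of S-phase genes, held 11, 39, 29 and 20 reads and differed by -0.34 (SE 0.36). The adjusted p-values of these 3 were 0.946, 0.927 and 0.524 by edgeR. TFAP2A, a factor of neural crest and melanocyte genes, held 13 and 25 reads in control and 12 and 12 without arginine. TFAP2A had a log2 fold change of -1.0 (SE 0.43, adjusted p = 0.086 by edgeR). It passed in 1 of 13 alternatives, without arginine-free 2 (-1.25, adjusted p = 0.0400), and was -0.72 (0.299) without arginine-free 1 and -0.94 (0.331) without control 2. Its row overlaps that of TFAP2A-AS2. IRF4, a melanocyte marker, and FOXQ1 each held 2 reads, and GCM2 was listed at 0.

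Among 15 listed nuclear, chromatin and RNA-processing genes, 13 had a row under their symbol. Of these 10 were tested, with 1 higher and 1 lower, against 13% and 13.7% of all rows tested. The median log2 fold change was -0.32, against -0.02 over all rows tested. NOL7 is left out of these counts, and the tested row ENSG00000225921.7 within its place had 0.49 (adjusted p = 0.159 by edgeR). PAK1IP1, a nucleolar protein of ribosome assembly, was the higher one (10694972 to 10709782, plus strand). It held 22 and 51 reads in control 1 and 2 and 87 and 68 in arginine-free 1 and 2. Both arginine-free libraries were above the controls, at 391 ± 37.9 against 227 ± 36.4 CPM, with a log2 fold change of 0.75 (SE 0.27) and an adjusted p of 0.0447 by edgeR. Without control 1 PAK1IP1 had 0.62 (adjusted p = 0.264), and without control 2 it had 0.98 (adjusted p = 0.130), and it passed in 6 of 13 alternatives. PRP4K, a kinase of the spliceosome also called PRPF4B, was the lower one (4021300 to 4064983, plus strand). It held 23 and 63 reads in control 1 and 2 and 40 and 9 in arginine-free 1 and 2. The groups were apart but wide, at 261 ± 71.9 CPM against 111 ± 79.3, with a log2 fold change of -1.19 (SE 0.38) and an adjusted p of 0.0256 by edgeR. The call was lost without control 1 (-1.42, adjusted p = 0.0548), without control 2 (-0.81, 0.370) and without arginine-free 2 (-0.68, 0.0868), and held in 7 of 13 alternatives. Without arginine-free 1 PRP4K had -2.28.

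NUP153, a nucleoporin of the nuclear basket, came near the threshold on the lower side. It held 21 and 51 reads in control and 34 and 16 without arginine. At 222 ± 42.8 against 120 ± 31.1 CPM its groups were apart, with a log2 fold change of -0.88 (SE 0.33, adjusted p = 0.0547 by edgeR). NUP153 passed in 1 of 13 alternatives, without arginine-free 1 (-1.21, adjusted p = 0.0168), and was -0.67 (0.129) without arginine-free 2 and -0.62 (0.443) without control 2. DEK, a chromatin protein, held 17 and 23 reads in control and 54 and 34 without arginine. Its arginine-free libraries both lay above the controls, at 217 ± 12.1 against 135 ± 29.4 CPM, with a log2 fold change of 0.73 (SE 0.33, adjusted p = 0.107 by edgeR). CDYL, a chromodomain corepressor, had 0.72 at an adjusted p of 0.378. HDGFL1 was listed at 0.

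**Figure D2:**
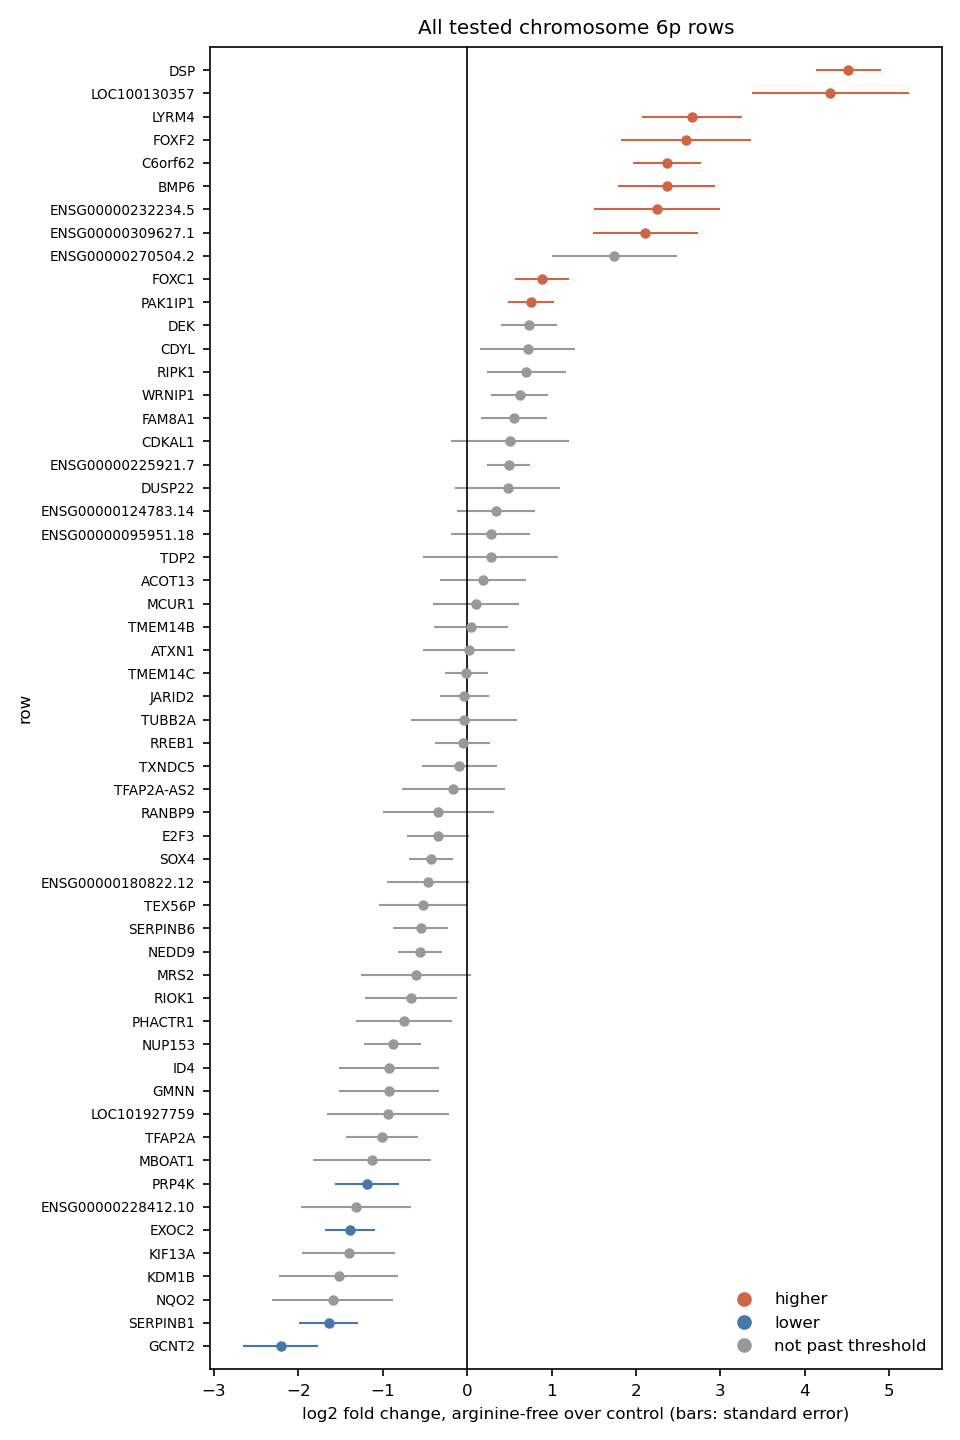
Log2 fold change, arginine-free over control, of all 56 tested rows in order of size, with bars of 1 standard error; colour marks rows past the threshold. DSP at 4.52 and LOC100130357 at 4.31 lie at the upper end and GCNT2 at -2.21 at the lower end, with 42 rows not past the threshold in between.

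The protease inhibitor genes lie next to one another near the tip of the arm, and both that were tested had lower values without arginine. SERPINB1, which inhibits neutrophil serine proteases, fell. Its row (2832332 to 2841863, minus strand) held 26 and 44 reads in control 1 and 2 and 17 and 12 in arginine-free 1 and 2. The groups were apart, at 228 ± 14 CPM in control and 72.4 ± 1.81 without arginine. The arginine-free values rest on 17 and 12 reads, so their small spread is not a measure of counting error. The log2 fold change was -1.64 (SE 0.35), 3.11-fold lower, with an adjusted p of 0.00137 by edgeR. SERPINB6, an inhibitor of trypsin-like proteases, held 22 and 40 reads in control and 29 and 25 without arginine. Its groups were apart at 200 ± 2.17 against 137 ± 22.8 CPM, and its log2 fold change of -0.55 (SE 0.33) had an adjusted p of 0.227 by edgeR. SERPINB9, the granzyme B inhibitor, held 2 reads in all.

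The largest list, 27 genes of metabolism, membranes and organelles, had 25 rows, of which 9 were tested, 12 held 1 to 19 reads and 4 were listed at 0. Of the tested rows 1 was higher and 1 lower, against 13% and 13.7% of all rows tested. The median log2 fold change was -0.01, against -0.02 over all rows tested. GCNT2, which adds the branches of the I blood group antigen to glycans, fell. Its row (10492223 to 10629368, plus strand) held 22 and 31 reads in control 1 and 2 and 11 and 4 in arginine-free 1 and 2. Both arginine-free libraries were below the controls, at 35.3 ± 15.2 against 177 ± 33.7 CPM, with a log2 fold change of -2.21 (SE 0.44), 4.63-fold lower, and an adjusted p of 0.000735 by edgeR. EXOC2, SERPINB1 and GCNT2 were past the threshold under all 13 alternative settings, EXOC2 with -1.48 to -1.29, SERPINB1 with -1.71 to -1.54 and GCNT2 with -2.77 to -1.87.

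LYRM4, a mitochondrial protein that activates the cysteine desulfurase of iron-sulfur cluster assembly, rose. Its row (5108419 to 5260950, minus strand) held 1 and 4 reads in control 1 and 2 and 25 and 17 in arginine-free 1 and 2. The arginine-free libraries were both above the controls, at 105 ± 0.146 against 14.5 ± 7.55 CPM. The small spread between the arginine-free libraries does not include counting error. The ratio by totals was 6.36 with a counting interval of 2.52 to 20.6. The log2 fold change was 2.66 (SE 0.59), or 6.32-fold, with an adjusted p of 0.00207 by edgeR, and it ran from 2.36 without control 1 to 3.44 without control 2. FARS2, the mitochondrial phenylalanine transfer RNA synthetase, starts 94 bases beyond LYRM4 and held 2, 5, 6 and 2 reads. The LYRM4 promoter printed above lies in that gap and beyond it.

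The row with the most reads on the arm had near-equal means. TMEM14C, a mitochondrial membrane protein of heme synthesis, held 36 and 90 reads in control and 102 and 57 without arginine. At 388 ± 82.4 and 389 ± 54.3 CPM its groups overlapped, with a log2 fold change of -0.01 (SE 0.25, adjusted p = 0.976 by edgeR). Its neighbour TMEM14B held 6, 22, 19 and 17 reads, with 0.05 (SE 0.44, adjusted p = 0.95). MCUR1, a regulator of the mitochondrial calcium uniporter, had 0.10 (adjusted p = 0.9), and ACOT13, a thioesterase of acyl-CoA, had 0.19 (adjusted p = 0.823). SIRT5, the mitochondrial desuccinylase, held 18 reads in all and was not tested. GMPR, SLC17A3, SLC17A4 and PPP1R3G were listed at 0.

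BMP6, a secreted ligand of the bone morphogenetic protein family that controls hepcidin in the liver, was the only tested row of 8 for secreted or cell surface proteins, and it rose. Its row (7726099 to 7881728, plus strand) held 5 and 2 reads in control 1 and 2 and 30 and 19 in arginine-free 1 and 2. The groups were apart at 27.8 ± 25.3 and 121 ± 6.26 CPM, with a log2 fold change of 2.36 (SE 0.57), or 5.15-fold, and an adjusted p of 0.00393 by edgeR. BMP6 passed in 11 of 13 alternatives and lost its call without control 2 (1.43, adjusted p = 0.169) and with DESeq2 (2.31, 0.0597). Without control 1 it was 3.54 (0.00601). BMP6 overlaps the place of TXNDC5, a protein disulfide isomerase of the endoplasmic reticulum, by 212 bases, and TXNDC5 had a log2 fold change of -0.10 (adjusted p = 0.898 by edgeR). PRL, F13A1, LY86, ADTRP and KIAA0319 were listed at 0, NRN1 held 2 reads and CD83 held 4.

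Signalling and ubiquitin genes gave no call among 3 tested of 9 rows, and 6 held 1 to 19 reads. Over all rows tested 26.7% were called, so a list of so few tested rows can easily hold no call. WRNIP1, an ATPase at stalled replication forks, held 12 and 24 reads in control and 40 and 31 without arginine. Its groups were apart, at 114 ± 6.46 and 179 ± 16.3 CPM, with a log2 fold change of 0.62 (SE 0.34, adjusted p = 0.187 by edgeR). RIPK1, a kinase of death receptor signalling, had 0.70 (adjusted p = 0.292). The list of protein making and folding had 2 tested of the 4 rows that took its symbols and no call, and EEF1E1 and BLOC1S5 were listed at 0. No row took the symbols SSR1 and PSMG4. Their places lie within the tested rows ENSG00000124783.14 (log2 fold change 0.34, adjusted p = 0.625 by edgeR) and ENSG00000180822.12 (-0.47, 0.518).

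Outside the lists, C6orf62 rose and was past the threshold under every alternative run. C6orf62 codes for a protein of little known function at 24704861 to 24720825 on the minus strand. It held 5 and 10 reads in control 1 and 2 and 73 and 31 in arginine-free 1 and 2. The arginine-free libraries were both above the controls, at 248 ± 81.4 against 47.6 ± 2.69 CPM, with a log2 fold change of 2.37 (SE 0.40), or 5.18-fold, and an adjusted p of 0.000157 by edgeR. Over 13 alternatives it ran from 1.97 to 2.67. C6orf62 overlaps ACOT13 by 205 bases, and ACOT13 held 7, 10, 13 and 12 reads. FAM8A1, a component of the Hrd1 complex of endoplasmic reticulum degradation, held 8, 25, 28 and 32 reads, with a log2 fold change of 0.56 (SE 0.39, adjusted p = 0.307). The pseudogene TEX56P had -0.52 (adjusted p = 0.497).

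Among the rising rows, 3 took no protein-coding symbol. LOC100130357 (13264861 to 13295586, minus strand) held 0 and 1 reads in control 1 and 2 and 14 and 16 in arginine-free 1 and 2, which is 2.48 ± 3.5 CPM against 78.5 ± 28.1. Its fitted log2 fold change was 4.31 (SE 0.93, adjusted p = 0.00147 by edgeR). With a single control read this fold is poorly fixed: the ratio by totals was 22.7 with a counting interval of 3.77 to 926, and the fitted value ran from 3.79 without control 1 to 6.72 without control 2. Its place overlaps that of PHACTR1, on the other strand, by 25586 bases. The other 2 took no symbol. ENSG00000232234.5 (8102711 to 8440031, plus strand) begins 152 bases past EEF1E1. It held 3, 1, 14 and 12 reads, with a log2 fold change of 2.25 (SE 0.74, adjusted p = 0.028). It passed in 9 of 11 alternatives, lost the call without control 2 (1.26, 0.384), and was 3.57 (0.0354) without control 1. ENSG00000309627.1 (3157642 to 3158722, plus strand) begins 98 bases past TUBB2A, a beta-tubulin, and its longest exon has 291 bases. It held 5, 2, 31 and 11 reads, with 2.11 (SE 0.62, adjusted p = 0.0148), and lost the call without control 2 (1.18, 0.318), without arginine-free 1 (1.54, 0.132) and with DESeq2 (2.01, 0.148). Without control 1 it was 3.28 (0.0160). TUBB2A itself held 2, 11, 11 and 5 reads with a log2 fold change of -0.04. Whether any of the reads on these 3 rows belong to the neighbouring genes was not tested.

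**Figure D3:**
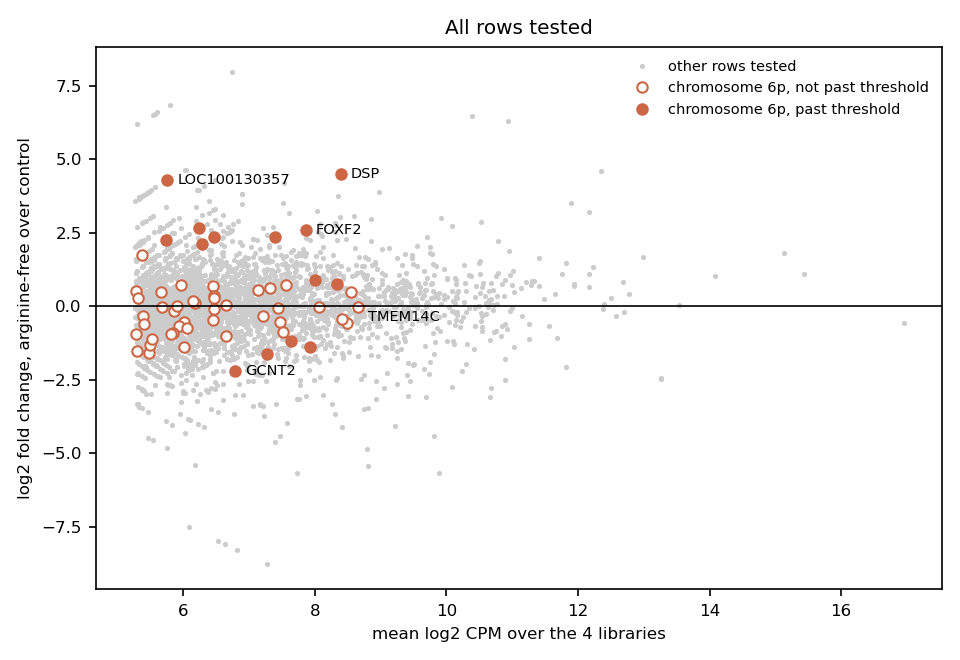
Log2 fold change, arginine-free over control, against mean log2 CPM over the 4 libraries for all 3334 rows tested (grey), with the 56 rows of the arm as circles over them, filled where past the threshold, and a few named. DSP is the highest row of the arm here, at 4.52, and some grey rows lie above it and some below GCNT2 at -2.21.

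Reads were found on the arm more often than elsewhere in the table. Of its 106 protein-coding rows 79 (74.5%) held at least 1 read, against 25.8% of 833 on the rest of chromosome 6 and 28.0% of 17346 on the other nuclear chromosomes. At least 20 reads were held by 41.5%, 11.9% and 11.4% of them. On the arm the share with a read was 33.3% of 3 rows whose longest exon was under 300 bases, 54.5% of 22 rows with at least 300 and under 1000 bases, 80.0% of 30 with at least 1000 and under 2000, and 82.4% of 51 with at least 2000. On the other nuclear chromosomes the same classes had 15.5%, 24.2%, 27.2% and 32.2%. These shares are descriptions without a test, since the rows share their libraries. The arm was chosen with earlier results of these data known, so the shares may not be independent of that choice. How far the 2 builds lie apart at each row, and its part in these shares, was not tested. None of the 8 microRNA rows of the arm held a read.

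**Figure D4:**
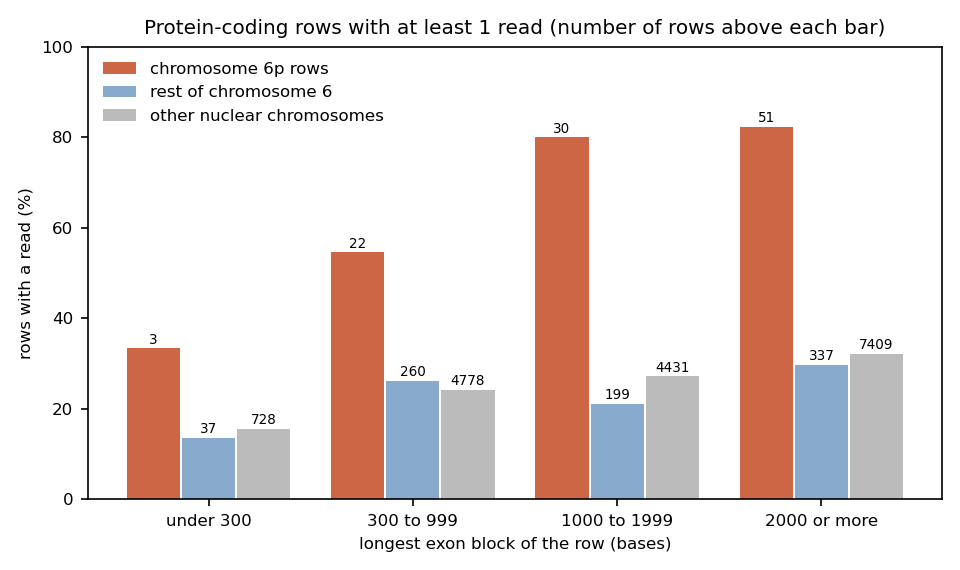
Percentage of protein-coding rows with at least 1 read in any library, by the length of the row's longest exon, for the chromosome 6 arm, the rest of chromosome 6 and the other nuclear chromosomes; the number of rows stands above each bar. On the arm the share goes from 33.3% of 3 rows under 300 bases to 82.4% of 51 rows with at least 2000 bases, and the other groups stay at or below 32.2% in every class.

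The features of the rows that rose and fell overlapped widely. The longest exon had a median of 1539 bases (291 to 4398) in the 10 higher rows, 2316.5 bases (1611 to 4571) in the 4 lower rows and 2253.5 bases (277 to 8789) in the 42 others. On the plus strand lay 7 of the 10 higher and 2 of the 4 lower rows, as did 36 of all 56. Exon bases were shared with another row by 6 of the 14 rows past the threshold and by 33 of the 56. Reads that overlap several rows are by default left out of such counts, so a row can lack the reads on bases it shares. The counting took no account of strand, so on bases a row does not share, reads of either strand count alike.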

How the data were processed

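Footprint counts were used as the authors deposited them: whole reads per row, counted over exons of the GENCODE 47 annotation with featureCounts 2.0.1 and no strand option, per the file headers. The header shows the option for paired reads although the labels' protocols describe single reads. Ribosomal RNA was not depleted, per the labels' protocols. Cutadapt, Bowtie2 2.5.2, TopHat2, GRCh37 and hg19 are named in the submitters' processing notes. No coordinates were converted. All 4 count columns were mapped to samples through their titles.

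Rows took a RefSeq (GRCh38.p14) symbol where row and gene were each other's best overlap, at an overlap over union of 0.5 with a shared edge or 0.75 without. That table carries no strand. A gene of the role lists counts as having a row only where a row took its symbol. Rows with at least 20 reads over the 4 libraries were fitted with edgeR 4.0.16 (R 4.3.3; TMM, quasi-likelihood test), with Benjamini-Hochberg adjustment over the whole table and a threshold of 0.05. CPM uses the tested rows' total times its TMM factor. An SD of 2 libraries can by chance lie below their counting error, as for EXOC2, SERPINB1 and SERPINB6. Each SE was worked back from the F statistic, dividing the size of the log2 fold change by the root of F. On counts simulated for 3334 rows with 200 changed, the test recovered 72% of 4-fold and 22% of 2-fold changes, with 3 calls among unchanged rows. Every simulated row had the same dispersion (0.0363), so rows that vary more between replicates, such as FOXF2, were not represented. These rates are therefore not error rates of the deposited counts. Replicate pairs differed beyond counting noise (chi-square per degree of freedom 3.55 and 6.67). Replicate numbers were not treated as pairs, since deviations of libraries with the same number correlated at -0.05.

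Named rows are those past the threshold and the 20 others with a symbol and the most reads, full values being given for 12 of the latter. Rows named beyond these are listed members at 0 or with under 20 reads, neighbours of a called row, or tested rows at the places of listed genes whose symbol no row took. The members, the role lists, the marker lists and the tests were chosen with earlier results of these data known. RefSeq promoters were searched with Python 3.11.15 and pandas 2.3.3. Arginine content of the proteins was planned and not analysed here. Normalization, filter, tool, replicate block and left-out libraries were varied.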

Additional observations from a re-analysis of the deposited data

How the results depend on the processing

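The arm's 10 higher and 4 lower rows were called again with RLE factors, upper-quartile factors, nuclear rows alone and filterByExpr. With library totals alone the higher rows were 8, and with no filter 9. Of the 10 higher rows, 4 held under 50 reads and were not tested at that limit. DESeq2 gave no adjusted p for 2 of them, LOC100130357 and ENSG00000232234.5. Higher rows numbered 3 with at least 50 reads (29 rows of the arm tested), 6 with the replicate block and 3 with DESeq2, and 4 to 9 when 1 library was left out, while lower rows numbered 3 in the first 3 settings and 3 to 6 in the last. Over the whole table, higher and lower rows numbered 263 and 298 with the replicate block, 181 and 184 with DESeq2, and 199 to 474 and 208 to 499 when 1 library was left out. With the replicate block, ENSG00000232234.5 was at 2.23 (adjusted p = 0.0889) and not called, and LOC100130357 had a larger value than DSP (4.47 against 4.46). The cause was not tested. The median log2 fold change of the arm's rows was 0.0786 with no filter (129 rows) and -0.19 to 0.11 when 1 library was left out. FOXF2 reversed to -0.23 without arginine-free replicate 2 and reached 3.62 without control replicate 1. Of the rest that changed sign, TMEM14C was 0.0097 with RLE factors, 0.0096 with upper-quartile factors, 0.079 with no filter and 0.016 with DESeq2. JARID2 and RREB1 were 0.0595 and 0.0437 with no filter, and TMEM14B was -0.00052 with at least 50 reads. The others came with 1 library left out, over which ranges were -0.66 to 0.31 for E2F3, -0.20 to 0.18 for JARID2, -0.20 to 0.45 for MCUR1, -1.23 to 0.62 for PHACTR1, -0.10 to 0.0073 for RREB1, -0.26 to 0.74 for TMEM14B, -0.19 to 0.27 for TMEM14C and -0.24 to 0.10 for TXNDC5. Of 430 values over 34 named rows and the alternatives, 376 kept direction and side of the threshold, 31 lost the call, 3 gained one and 20 changed sign, all but FOXF2 from values not past the threshold to values not past it. LYRM4 kept its call in all 12 settings that tested it and LOC100130357 in all 11. The difference in the share of reads, 0.0396 points, was 0.0488 with nuclear rows alone and 0.00135 to 0.0779 when 1 library was left out. The low read totals limit all of this: a count of 0 still allows up to 27.4 CPM on a row in control 1. That limit holds for the row and not for its gene, since a row can miss reads of its gene.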

Other observations

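A row of the arm outside the rule for named rows, chosen after its values were seen, is ENSG00000225921.7 (13615335 to 13621712), which covers 37.2% of the RefSeq place of NOL7, a nucleolar protein. It held 32 and 62 reads in control 1 and 2 and 97 and 72 in arginine-free 1 and 2, with a log2 fold change of 0.49 (SE 0.25) and an adjusted p of 0.159 by edgeR.

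Among rows with 1 to 19 reads, which were not tested, NUP153-AS1 held 0, 2, 6 and 9 reads in control 1, control 2, arginine-free 1 and arginine-free 2, and GFOD1 held 1, 1, 8 and 3. RNF182 held 3, 7, 2 and 1 reads in the same order, and TMEM170B held 1, 5, 0 and 0. These rows were picked after their counts were seen, and their differences were not tested.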
